A study of Mus musculus with 2 samples.

Results

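The nuclei described here are the brainstem microglia on which both deposited labels meet, the cluster name micro and the reference label Microglia. They number 108 of the 18281 nuclei in the series, 41 of 9259 in the WT library and 67 of 9022 in the HET library. HET stands for a female mouse with the Scn1a A1783V/WT knock-in, a missense loss-of-function change in the sodium channel gene mutated in Dravet syndrome. WT stands for a female wild-type mouse, and both were at postnatal day 41 and on a C57BL/6J background. The HET genotype came from crossing floxed-stop Scn1a males to Sox2-Cre females, so that the Cre acts in the early embryo and the allele is carried throughout the body, and WT mice were littermates that went untreated like the HET mice. A seizure before collection was not required. With 1 library per genotype, genotype, animal and library cannot be told apart, no test was possible, and every interval below is a 95% interval of counting error only.

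Microglia are the resident macrophages of the brain, which enter it in the embryo and depend on signals through CSF1R and on TGF-beta from their surroundings. In the resting, or homeostatic, state they express surface receptors that sense neurons and released nucleotides, together with the transcription factors that hold their identity. After injury, seizures or disease they can lower these genes and raise lysosomal, lipid-handling, antigen-presenting, interferon or inflammatory genes.

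The 4 genes that mark these cells are Cx3cr1, the fractalkine receptor, P2ry12, an ADP receptor, C1qa, a chain of complement C1q, and Csf1r, the receptor for CSF1 and IL-34. The sequence before the start of some of them is shown because PU.1, the ETS factor required for microglia, is known to bind sites built on the letters GAGGAAGT. The 250 bases before the RefSeq start (GRCm38.p6) are given 5′ to 3′ on the strand of the gene, with AGGAAGT or its reverse complement in capitals, for P2ry12 (chr3:59262986-59263235), for C1qc, a gene next to C1qa that encodes another C1q chain and was chosen after its values were seen (chr4:136892915-136893164), and for Cx3cr1 (chr9:120068297-120068546), all on the minus strand.
P2ry12: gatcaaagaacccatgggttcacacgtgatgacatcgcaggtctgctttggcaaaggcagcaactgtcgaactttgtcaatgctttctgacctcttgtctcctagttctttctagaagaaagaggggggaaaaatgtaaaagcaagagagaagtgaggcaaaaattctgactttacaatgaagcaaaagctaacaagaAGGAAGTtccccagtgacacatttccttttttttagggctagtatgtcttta
C1qc: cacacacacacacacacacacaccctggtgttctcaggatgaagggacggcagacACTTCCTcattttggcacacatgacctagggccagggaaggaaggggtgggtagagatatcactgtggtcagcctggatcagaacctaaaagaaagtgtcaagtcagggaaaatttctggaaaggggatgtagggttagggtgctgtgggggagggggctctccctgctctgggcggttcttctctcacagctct
Cx3cr1: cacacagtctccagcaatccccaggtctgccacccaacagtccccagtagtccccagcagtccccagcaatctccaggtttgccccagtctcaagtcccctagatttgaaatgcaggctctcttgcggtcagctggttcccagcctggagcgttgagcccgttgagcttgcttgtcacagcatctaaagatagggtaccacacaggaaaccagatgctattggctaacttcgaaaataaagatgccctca
The P2ry12 match starts 52 bases before the gene start on the gene strand, the C1qc match starts 195 bases before it on the other strand, and the Cx3cr1 window holds no match. Of 32851 mouse promoters cut to the same window, 7.69% held AGGAAGT on either strand and 2.44% the longer GAGGAAGT, which contains it. Of the 61 homeostatic and C1q genes, 45 had a promoter in the table, and 10 of these held AGGAAGT and 3 GAGGAAGT. A match describes letters and is not evidence of binding.

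The markers were present under the label in both libraries. In the annotation of the build of the counts (mm10, GENCODE M21), Cx3cr1 lies at chr9:119901616-120069879, minus strand, P2ry12 at chr3:59216272-59262871, minus strand, C1qa at chr4:136895917-136898803, minus strand and Csf1r at chr18:61100598-61132149, plus strand. Cx3cr1 had 74 WT and 186 HET UMIs in these nuclei, Csf1r 64 WT and 131 HET UMIs, P2ry12 85 WT and 127 HET UMIs and C1qa 48 WT and 64 HET UMIs. A nucleus held a median of 1 Cx3cr1 UMI in WT (0 to 5) and 2 in HET (0 to 8), and of 2 P2ry12 UMIs in WT (0 to 5) and 1 in HET (0 to 8). At least 2 of the 4 were detected in 40 of 41 WT and 65 of 67 HET nuclei, and all 4 in 14 and 21. In CPM, the UMIs of a gene scaled to a common total, Cx3cr1 stood over both libraries at 1154 in the microglia, against 23.8 in oligodendrocytes, 22.1 in astrocytes and 15.5 in neurons named the same by both labels. Csf1r stood at 865 CPM against 6.46, 6.57 and 2.74. Clusters were made from these genes, so the contrast describes the nuclei and was not tested. With every nucleus thinned to 1000 UMIs, 62.8% of the microglia would hold a Cx3cr1 UMI, compared with 1.62% of neurons and 2.36% of oligodendrocytes, which should lack the gene and give the background. At their own depth the share was 80.6% in the microglia, whose median depth was 1932 UMIs, and 13.3% in neurons, whose median was 8066.

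P2ry12 was the weakest of the markers by this contrast, at 941 CPM in the microglia and 131 CPM in neurons, a level 8.02-fold that of all other nuclei where Csf1r reached 187-fold. P2ry12 lies on the minus strand inside Med12l, a plus-strand gene that neurons also express, as does P2ry13, and the strand setting of the counting is not given in the sources used here. Med12l had 40 WT and 105 HET UMIs in the microglia. In the annotation, Cx3cr1 also spans parts of neighbouring genes, of which Gorasp1, Csrnp1 and Xirp1 lie on the same strand. The part of their reads in the Cx3cr1 counts, also in neurons and oligodendrocytes, was not tested. Levels are not corrected for gene length, so values are compared between nuclei and not between genes.

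**Figure D1:**
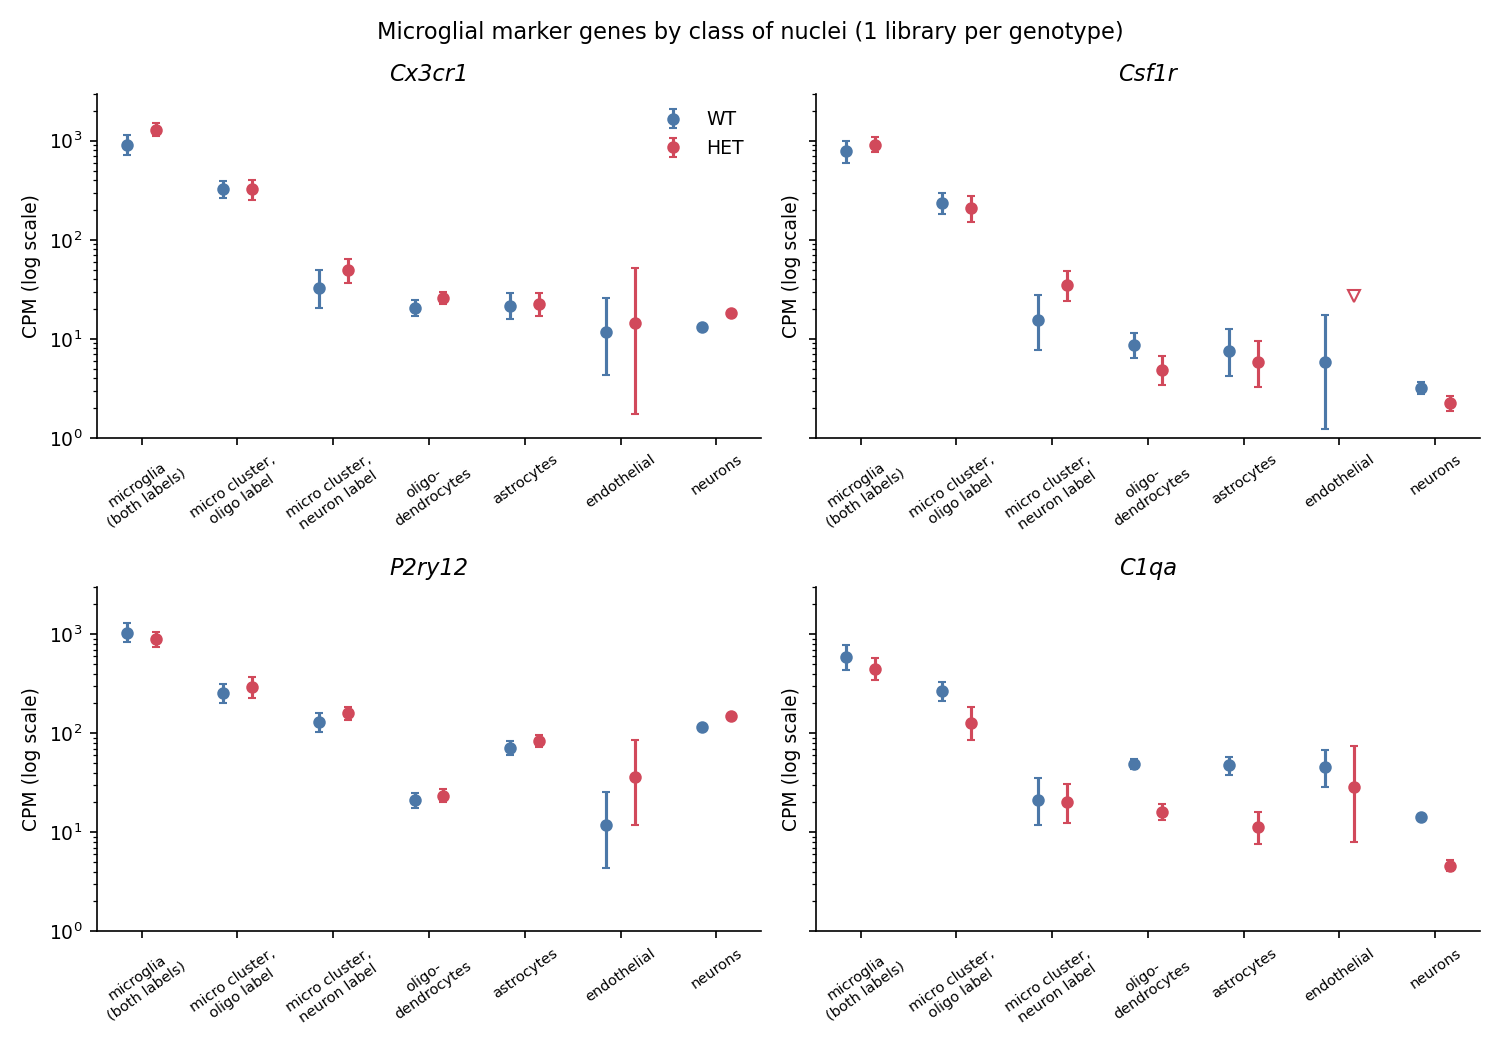
CPM (log axis) of the 4 markers in each class of nuclei, WT in blue and HET in red, with 95% counting intervals, and an open triangle at the upper bound where no UMI was found. The microglia stand highest for each marker, and the nuclei of the micro cluster with an oligodendrocyte label come next.

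The 297 other nuclei of the micro cluster were unlike these. Of them, 211 carried the label Neurons and 79 the label Oligodendrocytes. Nuclei labelled Oligodendrocytes held Cx3cr1 at 323 CPM beside the myelin gene Mog at 776 CPM, and those labelled Neurons held Cx3cr1 at 42.4 CPM beside the neuronal gene Rbfox3 at 411 CPM. In the microglia, Mog stood at 124 and Rbfox3 at 71.0 CPM. Homeostatic genes together took 34650.3 CPM in the microglia, 9906 in the oligodendrocyte-labelled nuclei and 2129 in the neuron-labelled nuclei. Only 5 nuclei outside the micro cluster had the reference label Microglia.

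The microglia were shallow, with 1367 to 3230 UMIs per WT nucleus (median 1904) and 1377 to 9241 per HET nucleus (median 1946), or 81858 and 143479 UMIs in all. All other nuclei had medians of 5476 and 5701 UMIs. A count of 0 over a whole library therefore allows up to 36.6 CPM in WT and 20.9 CPM in HET (3 UMIs). The 2 libraries shared 23 cell barcodes, none of them among the microglia. The deposited share of ribosomal protein UMIs had a median of 1.46% in WT and 0.946% in HET microglia, and of 0.694% and 0.405% in all other nuclei.

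In all, 10 nuclei stood apart by rules set after the data were seen. HET nuclei of 9241 and 8224 UMIs were far deeper than the rest and carried the highest doublet scores of the microglia, 0.344 and 0.328. The deeper of them held 141 UMIs of the neuron list, 90 of them of Kcnip4, beside 168 UMIs of homeostatic genes. It shared finer cluster 28 with 1 WT and 1 other HET nucleus, and that cluster holds 79 nuclei labelled Oligodendrocytes. In 1 WT and 3 HET nuclei at least 3 UMIs of Mrc1, F13a1 and Dab2 together were found, genes of the macrophages at the borders of the brain. These nuclei held 12 of 15 WT and 42 of 45 HET UMIs of the 3 genes. Class II antigen-presenting genes were nearly confined to 1 WT nucleus of 3230 UMIs, with 37 UMIs of Cd74, H2-Aa, H2-Ab1 and H2-Eb1, and 1 HET nucleus of 1567 UMIs, with 8. Neither of these held a UMI of the 4 markers, and the HET one had the finer label Monocytes. Where leaving out the nuclei of such a set turned the direction of a list below, or moved its ratio past its counting interval, the value without them is given.

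**Figure D2:**
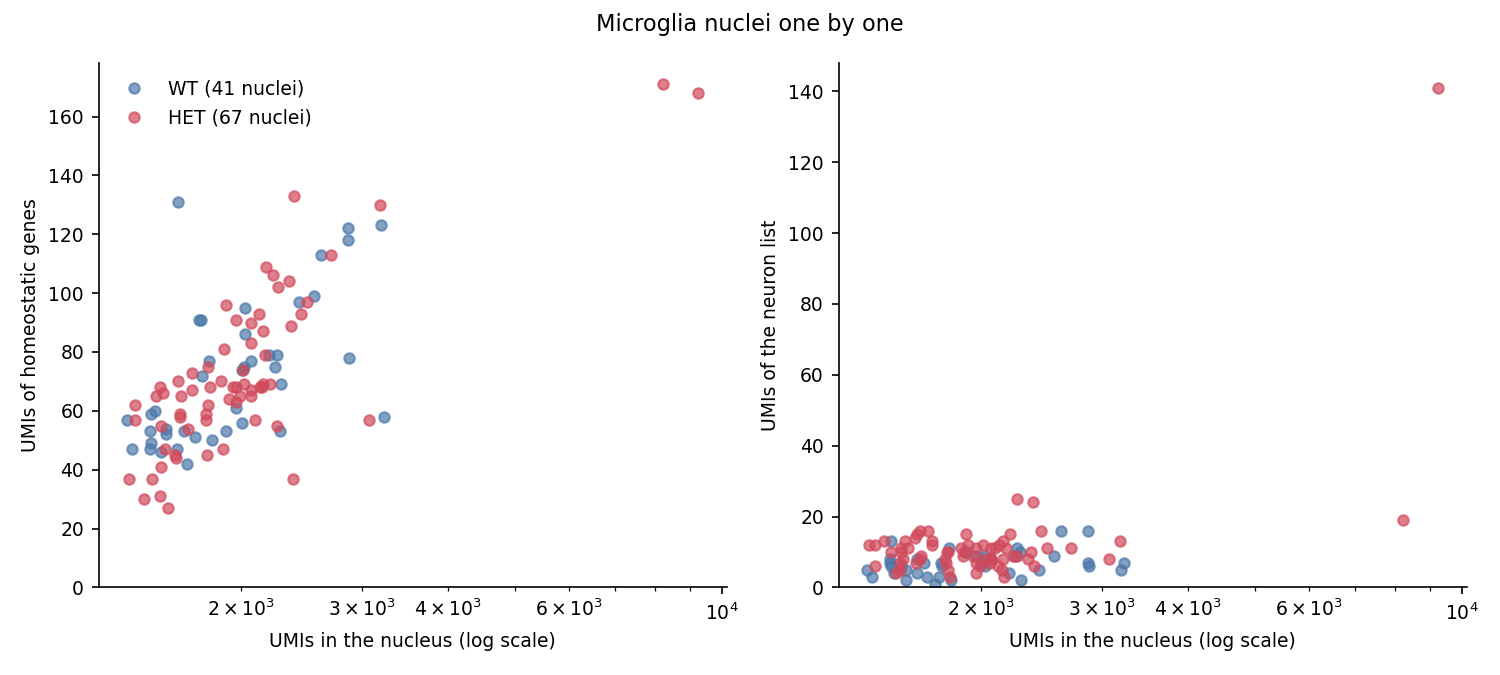
UMIs of the homeostatic genes (left) and of the neuron list (right) in each microglia nucleus against its total UMIs (log axis), WT in blue and HET in red. Most nuclei lie between 1367 and 3230 UMIs in both libraries, and 2 HET nuclei lie above 8000 UMIs, 1 of them with 141 neuron-list UMIs.

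Microglia made up a larger share of the HET library. They were 0.443% of WT nuclei (0.318 to 0.6%, exact Clopper-Pearson) and 0.743% of HET nuclei (0.576 to 0.942%), a ratio of 1.68 (1.12 to 2.54). Among non-neuronal nuclei alone the ratio was 1.41 (0.945 to 2.14), an interval that includes no difference. Other classes differed between the libraries as well, with 161 WT and 48 HET endothelial nuclei and 1760 WT and 2371 HET oligodendrocytes, and the part of dissection and nuclei recovery in the share was not tested.

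Homeostatic genes were found in both libraries at like levels. The 3 homeostatic lists, 58 genes in all, took 36270.1 CPM in WT and 33726 CPM in HET, 2969 WT and 4839 HET UMIs. All but Cebpa, a myeloid transcription factor, had a UMI. Of the 54 genes with at least 20 UMIs, 48 stood more than 10-fold above their level in all other nuclei, where 315 of all 2594 such genes (12.1%) did, a description with no test since the clusters were made from these genes. Per nucleus, homeostatic genes took a median of 3.59% of UMIs in WT (range 1.80 to 8.10%) and 3.55% in HET (1.56 to 5.57%), and the 2 ranges overlapped. The most specific genes of all, by their ratio to all other nuclei among genes with at least 40 UMIs, were Rhoh (594-fold), a small GTPase of blood cells, the GTPase regulator Arhgap45 (523-fold), Gm2629 (487-fold) and Bin2 (459.8-fold). Arhgap25, Gm50035, Gm10790, Inpp5d, Gm2245 and Ikzf1 followed at 433- to 366-fold. Gm2245 is annotated antisense to Fyb, and the part of Fyb reads in its count was not tested.

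Between genotypes the homeostatic genes stood close together. Their summed log2 ratio, HET over WT, was -0.10 (-0.17 to -0.04), and the median over the 54 genes was -0.08, beside 0.01 over all 2594 genes with at least 20 UMIs. Of the 54 genes, 20 were higher and 34 lower in HET, beside 1307 higher and 1287 lower of all 2594 genes. Past 2-fold, 1 of the 54 was higher and 0 were lower. Of all 2594 genes, 9.02% were over 2-fold higher and 6.17% over 2-fold lower. Without the 2 HET nuclei above 8000 UMIs the summed ratio was -0.02. In the 20 WT and 33 HET nuclei with the lower share of neuron-list UMIs within their own library, it was 0.07. No common cut was set, and the median share over all microglia was 0.349% in WT and 0.506% in HET.

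Among the receptors and surface proteins, 12 of 23 genes were higher and 11 lower in HET, with a summed ratio of 0.03 (-0.08 to 0.13). Cx3cr1 stood at 904 CPM (709.8 to 1135) in WT and 1296 CPM (1117 to 1497) in HET, a log2 ratio of 0.52 (0.12 to 0.93), and was found in 31 of 41 WT and 56 of 67 HET nuclei. Its interval lay above 0, and in all other nuclei the ratio was 0.27. Without the 10 nuclei set apart it was 0.57. Tgfbr1, a TGF-beta receptor subunit and the gene of the list with most UMIs, had 181 WT and 388 HET UMIs and a ratio of 0.29 (0.03 to 0.55). Csf1r stood at 782 CPM (602 to 998) in WT and 913 CPM (763 to 1083) in HET, with a ratio of 0.22 (-0.22 to 0.68). P2ry12 stood at 1038 CPM (829 to 1284) in WT and 885 CPM (738 to 1053) in HET, with a ratio of -0.23 (-0.64 to 0.18). Mertk, a receptor for engulfing dying cells, had a ratio of 0.12 (-0.23 to 0.47). For Csf1r, P2ry12 and Mertk the intervals included 0. Lowest in the list was Selplg, the P-selectin ligand, at 745 CPM (570.0 to 957) in WT and 376 CPM (283 to 491) in HET. Its ratio of -0.99 (-1.54 to -0.43) resembled the -1.06 of all other nuclei. Siglech, a microglial lectin, with 83 WT and 103 HET UMIs, had -0.50 (-0.93 to -0.06) in the microglia and -0.50 in all other nuclei. Tmem119, a classical microglial marker, was the highest of the list at 0.78 (-0.62 to 2.40), but rested on 6 WT and 18 HET UMIs.

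The transcription factors and signaling proteins gave a summed ratio of -0.13 (-0.23 to -0.03), with 7 of 22 genes higher and 15 lower in HET. Mef2a and Mef2c, factors that shape the microglial program, had 173 WT and 299 HET UMIs and 147 WT and 225 HET UMIs, with ratios of -0.02 (-0.30 to 0.26) and -0.20 (-0.50 to 0.11). Inpp5d, a phosphatase that dampens immune receptor signals, had a ratio of 0.09 (-0.24 to 0.43), and the guanine exchange factor Dock8 -0.03 (-0.40 to 0.35). These intervals all included 0. Apbb1ip, an adaptor of integrin activation, was lower at -0.43 (-0.80 to -0.06) on 111 WT and 144 HET UMIs. Runx1 was the highest of the list at 0.36 (-0.14 to 0.88) and Syk, a kinase of immune receptors, the lowest at -0.91 (-2.07 to 0.24). The identity factors Spi1 (PU.1, 14 WT and 29 HET UMIs) and Sall1 (20 WT and 25 HET UMIs) had ratios of 0.24 (-0.73 to 1.28) and -0.49 (-1.39 to 0.44), too wide to place on either side of 0.

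The secreted and lysosomal proteins were lower in HET in sum, at -0.32 (-0.47 to -0.17), and 8 of 9 genes were lower, with a median of -0.12. In all other nuclei the summed ratio of the list was -0.69. The list had 609 WT and 854 HET UMIs, of which Cst3, the protease inhibitor cystatin C, held 230 and 216. Cst3 stood at 2809.7 CPM (2458 to 3197) in WT and 1505 CPM (1311 to 1720.2) in HET, a ratio of -0.90 (-1.17 to -0.63). A single WT nucleus held 56 of its 230 WT UMIs, and without that nucleus the ratio was -0.53. In all other nuclei the Cst3 ratio was -0.96. Lgmn, Ctss and Sparc had ratios of -0.12, -0.08 and -0.02, with intervals on both sides of 0. Olfml3, a secreted microglial protein, was the only homeostatic gene past 2-fold, at 1.14 (-0.10 to 2.58) on 7 WT and 27 HET UMIs.

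Complement genes, which tag synapses and debris for removal, had 238 WT and 376 HET UMIs and a summed ratio of -0.15 (-0.39 to 0.09). C1qa stood at 586 CPM (432 to 777) in WT and 446 CPM (344 to 569.6) in HET and C1qc at 549.7 CPM (401 to 736) in WT and 390.3 CPM (295 to 507) in HET, with ratios of -0.39 (-0.96 to 0.18) and -0.49 (-1.09 to 0.11). C1qb, the remaining C1q chain, had 0.07 (-0.52 to 0.68). In all other nuclei, the C1qa, C1qb and C1qc ratios were -1.52, -1.07 and -1.10. Itgam, the complement receptor chain, had -0.20 (-0.83 to 0.45), and Cd55 and C4b had no UMI.

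**Figure D3:**
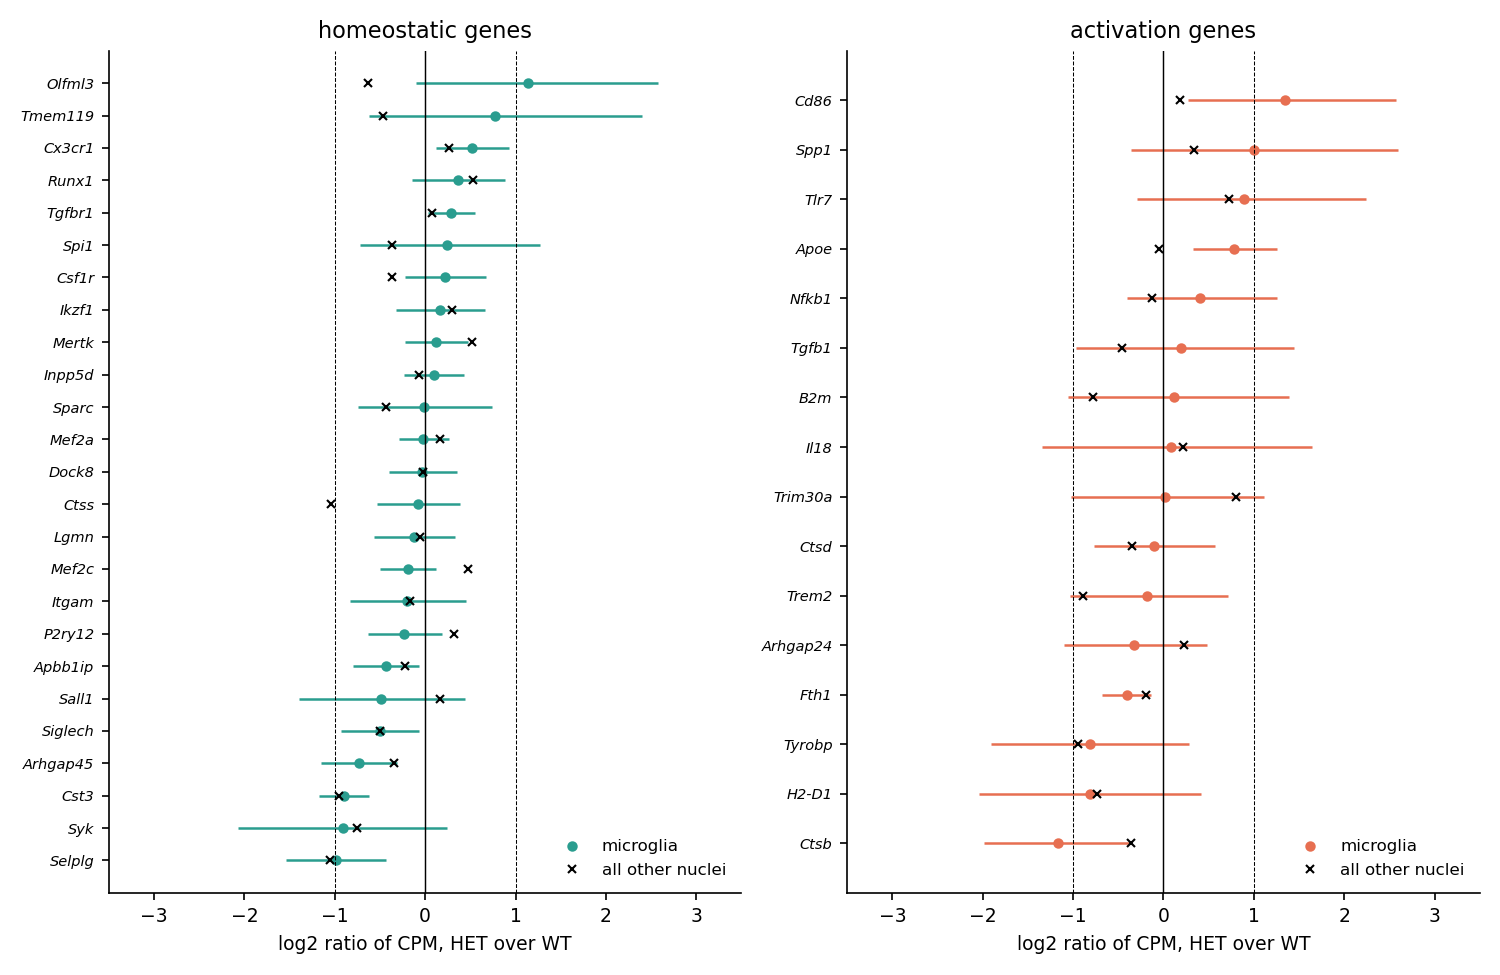
Log2 ratio of CPM, HET over WT, for the homeostatic (left) and activation (right) genes named in the text with at least 20 UMIs, with 95% counting intervals, and crosses for the same ratio in all other nuclei. Dashed lines mark 2-fold, which Olfml3 and Cd86 passed upwards and Ctsb downwards.

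Few activation genes were well counted, and their summed level was similar in both libraries. The lists of disease-associated, antigen presentation, interferon and inflammatory genes held 105 genes, of which 102 were in the table, 24 had at least 20 UMIs and 15 had none. Together they took 8930.1 CPM in WT and 8496 CPM in HET. Their summed ratio was -0.07 (-0.21 to 0.06) and the median over the 24 genes 0.11, so sum and median differed in sign. Of these, 16 were higher and 8 lower in HET, and 1 passed 2-fold in each direction. Over all 2594 genes, 9.02% were over 2-fold higher and 6.17% over 2-fold lower. Without the deepest nucleus of each library, of which the WT one is the nucleus with class II genes, the summed ratio was 0.07. It was 0.04 without the 2 HET nuclei above 8000 UMIs and 0.03 without all 10 nuclei set apart. In the nuclei with the lower share of neuron-list UMIs within their own library it was -0.26.

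The disease-associated list, genes that microglia raise around plaques and damaged myelin, gave -0.08 (-0.25 to 0.08) in sum and a median of 0.06, of the other sign, with 9 of 16 genes higher and 7 lower. Without the 2 HET nuclei above 8000 UMIs the sum was 0.04. Fth1, the ferritin heavy chain, was the most counted at 202 WT and 267 HET UMIs and was lower at -0.41 (-0.68 to -0.14). Apoe, the lipid carrier, was higher at 0.78 (0.33 to 1.26), with 647 CPM (485 to 847) in WT and 1115 CPM (949 to 1302) in HET. Of the 160 HET Apoe UMIs, 52 lay in the 3 HET nuclei with border macrophage genes, and without the 4 such nuclei of both libraries the ratio was 0.28. Astrocytes carried Apoe at 1572 CPM, and the ratio over all other nuclei was -0.05. Ctsb, a lysosomal protease, was the lowest at -1.17 (-1.98 to -0.37) on 32 WT and 25 HET UMIs. Ctsd, another such protease, and Arhgap24 had -0.11 (-0.77 to 0.57) and -0.32 (-1.11 to 0.48). Trem2, the lipid-sensing receptor of this program, had 20 WT and 31 HET UMIs and -0.18 (-1.03 to 0.71), and its adaptor Tyrobp 16 WT and 16 HET UMIs and -0.81 (-1.90 to 0.29). Spp1, osteopontin, was the highest at 1.00 (-0.36 to 2.60) on 6 WT and 21 HET UMIs, or 0.54 without the nucleus with its highest count. Cst7, a defining gene of the program, and Cox6a2 had no UMI.

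Antigen presentation was lower in HET in sum, at -1.04 (-1.50 to -0.58) on 88 WT and 75 HET UMIs. The value rested on 1 WT nucleus, since without both nuclei with class II genes the ratio was -0.24, without all 10 nuclei set apart -0.04 and without the deepest nucleus of each library 0.06. Cd74, the class II invariant chain, had 17 UMIs in 1 WT nucleus and 2 in 1 HET nucleus. The class I genes B2m and H2-D1 were found in more nuclei, 8 of 41 WT and 15 of 67 HET nuclei and 10 of 41 WT and 10 of 67 HET nuclei, with ratios of 0.12 (-1.06 to 1.38) and -0.81 (-2.04 to 0.42).

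Interferon response genes had 45 WT and 89 HET UMIs and a ratio of 0.17 (-0.36 to 0.73), or -0.04 without the 4 nuclei with border macrophage genes. Only Trim30a reached 20 UMIs, at 0.01 (-1.03 to 1.12), and Isg15, Cxcl10, Irf7, Ifi27l2a, Rsad2, Ifit1 and Ifit2 had no UMI. Parp14 followed with 4 WT and 13 HET UMIs. Inflammatory cytokines and sensors were higher in HET in sum, at 0.43 (0.08 to 0.79) on 94 WT and 222 HET UMIs, and all 5 genes with at least 20 UMIs were higher, with a median of 0.40. Without the 10 nuclei set apart the sum was 0.49, and in all other nuclei it was -0.16. Cd86, a costimulatory receptor, was past 2-fold at 1.34 (0.28 to 2.57), with 109.9 CPM (50.3 to 209) in WT and 279 CPM (199 to 379.6) in HET, in 8 of 41 WT and 29 of 67 HET nuclei. Without the 10 nuclei its ratio was 1.10. Tlr7, a sensor of RNA, and Nfkb1, a subunit of NF-kappaB, had 0.89 (-0.29 to 2.24) and 0.40 (-0.40 to 1.26), and Tgfb1 and Il18 0.19 (-0.97 to 1.45) and 0.08 (-1.35 to 1.65). Of the 5 genes, only Cd86 had an interval that lay above 0. The cytokine and effector genes Ccl2, Ccl5, Ptgs2, Nos2, Tlr9 and Socs3 had no UMI in either library. For a gene at 0, no more is known than that it lay under the limit of 36.6 CPM in WT and 20.9 CPM in HET.

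**Figure D4:**
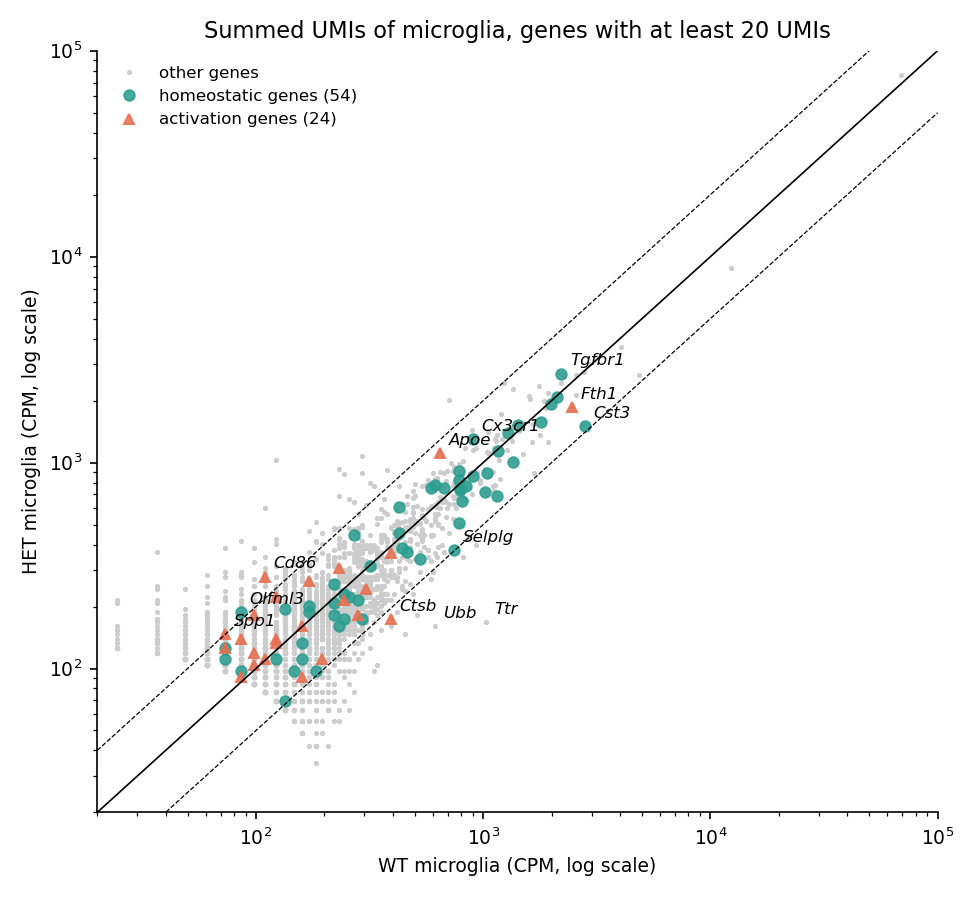
CPM in HET against CPM in WT microglia (log axes) for genes with at least 20 UMIs, with homeostatic genes as circles, activation genes as triangles and 2-fold lines dashed. Most homeostatic and activation genes lie along the diagonal. Olfml3 and Cd86 lie above the upper line, and Ctsb, Ttr and Ubb lie below the lower line.

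For other microglial functions the intervals of the summed ratios mostly included 0. Phagocytosis and lipid handling gave 0.02 (-0.14 to 0.17), purinergic and ion channel genes 0.02 (-0.23 to 0.26), and TGF-beta and CSF1 signaling 0.10 (-0.08 to 0.28). In these lists Elmo1, part of the engulfment machinery, had 209 WT and 381 HET UMIs and 0.06 (-0.19 to 0.31), Npc2, a cholesterol carrier, was the lowest at -1.22 (-2.65 to 0.15), and Smad4, the shared SMAD of TGF-beta signaling, the highest at 1.26 (-0.19 to 3.02) on 5 WT and 21 HET UMIs. Signals sent to microglia by other cells gave 0.27 (-0.18 to 0.73), and Il34, the second CSF1R ligand, had no UMI here while neurons carried it at 9.34 CPM. Oligodendrocytes carried Csf1 at 98.7 CPM and neurons Cx3cl1, the ligand of Cx3cr1, at 39.1 CPM. Immediate early genes gave 0.10 (-0.82 to 1.07) on 16 WT and 30 HET UMIs, with Fosb, Dusp1 and Egr1 at 0. Without the 2 nuclei with class II genes the ratio was -0.01 for phagocytosis and lipid handling and -0.04 for immediate early genes, and without the 4 nuclei with border macrophage genes the latter was -0.02. Proliferation genes had 5 WT and 24 HET UMIs and a ratio of 1.45 (0.03 to 3.20), but 15 of the 24 HET UMIs lay in the nucleus of 8224 UMIs, and without the 10 nuclei set apart the ratio was -0.63.

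Mitophagy and arachidonic acid genes were lower in HET in sum but not in their medians. Mitophagy gave -0.30 (-0.48 to -0.13) and all other nuclei -0.14, but 8 of 15 genes were higher and the median was 0.01. Ubb, a polyubiquitin gene, was its lowest member at -1.93 (-2.71 to -1.19), while Mitf, a regulator of lysosomal genes, had -0.42 (-0.98 to 0.16). Arachidonic acid metabolism gave -0.42 (-0.61 to -0.23) and all other nuclei -0.63, but 4 of 7 genes were higher and the median was 0.14. Ptgds, a prostaglandin D synthase made by meninges and oligodendrocytes, held 225 of the 406 WT and 220 of the 531 HET UMIs of the list. Its ratios were -0.84 (-1.12 to -0.57) in the microglia and -0.79 in all other nuclei. The microglial synthases Hpgds and Tbxas1 and the cyclooxygenase Ptgs1 had -0.22 (-0.72 to 0.29), 0.14 (-0.40 to 0.70) and 0.46 (-0.39 to 1.37).

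**Figure D5:**
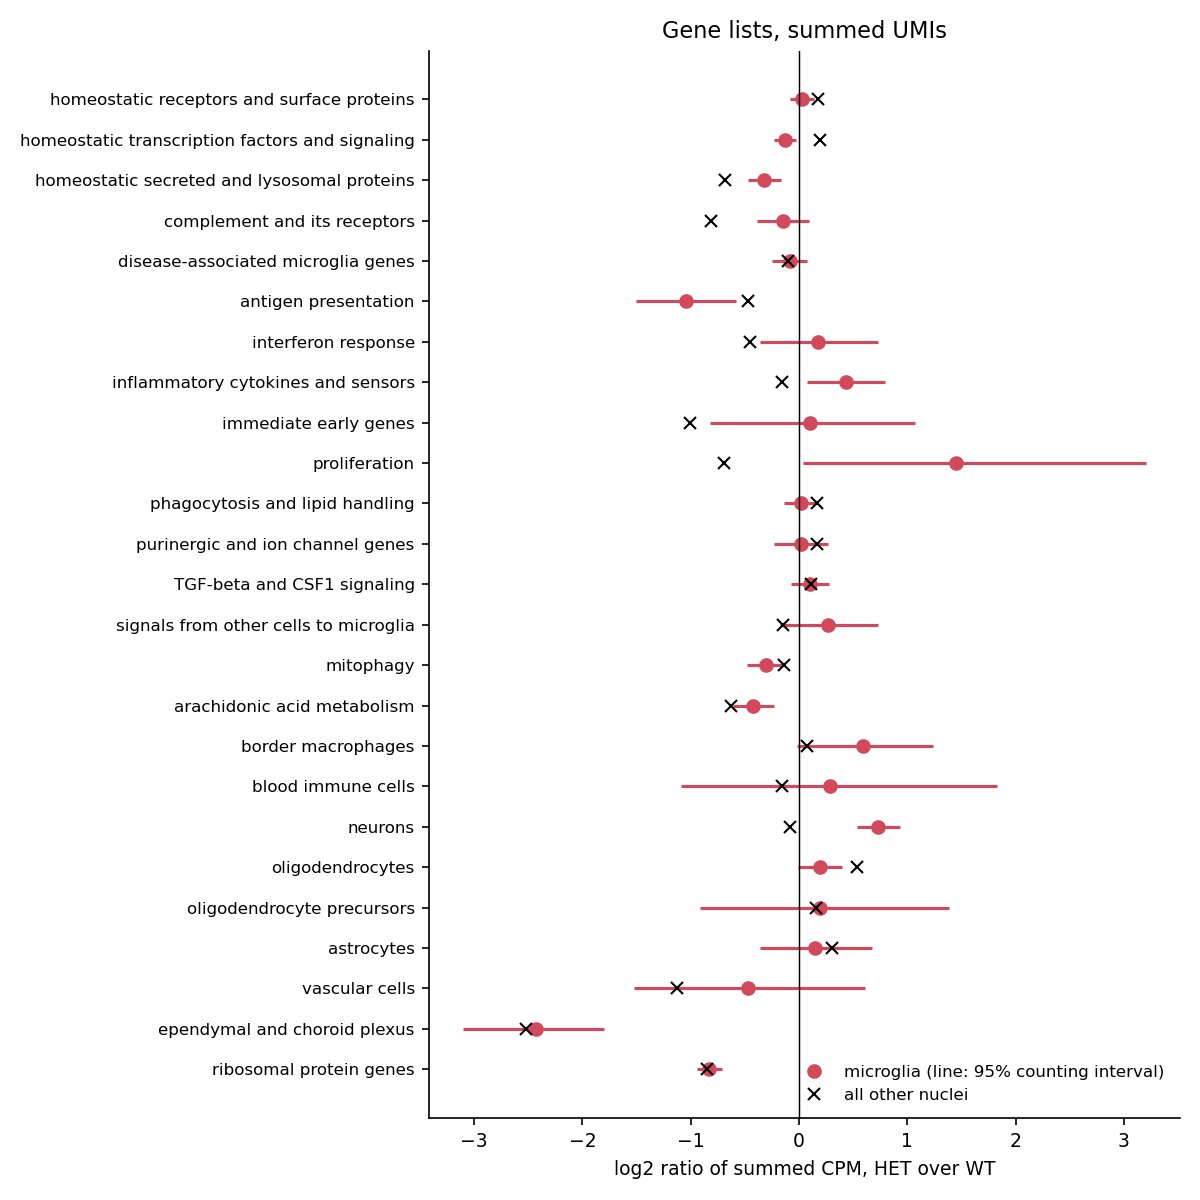
Log2 ratio of summed CPM, HET over WT, of each gene list in the microglia with its 95% counting interval, and crosses for the same ratio in all other nuclei. The choroid plexus and ribosomal lists are lower in HET by like amounts in both, and the neuron list is higher in HET in the microglia.

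By the rule of at least 40 UMIs in at least 10 nuclei, with no nucleus above 20% of them, the lowest in HET were Ttr, the thyroxine carrier secreted by the choroid plexus, at 1026 CPM (819 to 1270.5) in WT and 167 CPM (107 to 249) in HET and -2.62 (-3.34 to -1.95), and Ubb. Ttr was also lower in all other nuclei, at -3.22, and the whole list of ependymal and choroid plexus genes had -2.43 (-3.10 to -1.80) here and -2.53 there. Ptp4a2 (-1.76), Rpl8 (-1.71), Mlxipl (-1.63), Pld4 (-1.50), Rnf111 (-1.34) and Rpl9 (-1.29) followed. Of these, Pld4, an exonuclease of endosomes, and Mlxipl, a carbohydrate-responsive factor, stood 205- and 78.5-fold above all other nuclei. Pld4 had 42 WT and 26 HET UMIs and an interval of -2.27 to -0.76. Mlxipl had 37 WT and 21 HET UMIs and an interval of -2.47 to -0.82. Ribosomal protein genes, a list added after the data were seen, were lower as a group, 57 of 61, at -0.83 (-0.94 to -0.71) in the microglia and -0.85 in all other nuclei.

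The highest in HET were Nlgn1 (2.39), Cadps (2.04), Lingo2 (2.00), Grm7 (1.97), Nrg1 (1.93), Nrg3 (1.80), Nuak1 (1.78) and Pard3bos1 (1.74). Nlgn1, a synaptic adhesion protein, had 6 WT and 55 HET UMIs, and its level in the microglia was 0.113-fold that of all other nuclei. Of these 8 genes, Nuak1 and Pard3bos1 stood 9.08- and 7.13-fold above all other nuclei, and the other 6 stood below them. Pard3bos1 is annotated antisense to Pard3b, and the part of Pard3b reads in its count was not tested. All 15 genes of the neuron list had a UMI, and as a whole it was higher in HET microglia, 3433 CPM in WT and 5694 CPM in HET, at 0.73 (0.53 to 0.93), while in all other nuclei it was -0.09. Without the 10 nuclei set apart it was 0.50. Among other cell types, oligodendrocyte genes gave 0.19 (-0.01 to 0.40), precursors 0.19 (-0.92 to 1.38), astrocytes 0.15 (-0.36 to 0.67), vascular cells -0.47 (-1.52 to 0.61), border macrophages 0.59 (-0.02 to 1.24) and blood immune cells 0.29 (-1.09 to 1.83), the last on 7 WT and 15 HET UMIs with 12 of 17 genes at 0. Leaving out the 4 nuclei with border macrophage genes turned the direction of the border macrophage list, which stood at -0.33 without them and at 0.04 without all 10 nuclei set apart. The oligodendrocyte list stood at -0.0021 without the 2 HET nuclei above 8000 UMIs and at 0.0064 without all 10. The part of these cells, or of their free RNA, in the differences of single genes was not tested. Scn1a, which carries the mutation and is a neuronal gene, had 5 WT and 27 HET UMIs, a level 0.355-fold that of all other nuclei, and the count does not distinguish the alleles.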

How the data were processed

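Nuclei of 1 WT and 1 HET brainstem were sequenced on the Chromium 3′ platform. The authors deposited raw UMI counts of 25556 genes in 18281 nuclei, made with Cell Ranger (version not given in the sources used here) on mm10 and filtered in Seurat 4.1 for gene number and mitochondrial share. The table holds no mitochondrial genes, but does hold ribosomal protein genes that the study's methods name as filtered out. The percent values of ribosomal and mitochondrial UMIs and the doublet score per nucleus are the authors' own, as deposited, and the doublet caller is not named in the sources used here. All nuclei are deposited as singlets, clusters and labels were taken as deposited, no further doublets were removed, and counts per nucleus summed to the deposited total in all 18281 nuclei. The authors' comparisons were not used.

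UMIs were summed over the microglia of each library and divided by their total (CPM). Intervals are exact Poisson for CPM, conditional binomial for ratios and Clopper-Pearson for shares, all at the 95% level. A count of 0 was set to 3 for a ratio. Thinned shares give the chance of finding the gene after a random draw of 1000 UMIs, averaged over nuclei. The summed values of a list took every list gene in the table. Its counts of genes higher and lower and its median took only genes with at least 20 UMIs in both libraries together. The microglia and the 24 hand-written lists were chosen with earlier results of these data known. Genes were named by a rule: the 4 markers, the 5 most counted genes of a list with its highest and lowest ratio, the 10 most specific genes, and the 8 highest and 8 lowest ratios among genes with at least 40 UMIs in at least 10 nuclei, none with over 20% of them. Siglech, Spi1, Sall1, Trem2, Tyrobp, Med12l, Csf1 and Cx3cl1 fall outside this rule and were named after their values were seen, and Scn1a carries the mutation. A few genes that the rule names are not reported here. The ratio code was tested on simulated data. Python 3.11.15, numpy 2.4.6, pandas 2.3.3 and scipy 1.17.1 were used.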

Additional observations from a re-analysis of the deposited data

How the results depend on the processing

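The summed log2 ratios of the homeostatic and activation genes were recomputed under other scalings, subsets of nuclei and the whole micro cluster. Nuclei with the lower neuron share were picked within each library, with no common cut. For the homeostatic genes, at -0.1, the value left its counting interval in the nuclei with the lower neuron share (0.074), in every nucleus of the micro cluster (-0.0089), without the HET nuclei above 8000 UMIs (-0.022) and without the 10 nuclei set apart (-0.021), the last pair chosen after seeing the data. For the activation genes, at -0.072, it did so without the deepest nucleus of each library (0.071) and in the nuclei with the lower neuron share (-0.26). The number of lists with a median above 0 was 12 of 19, against 7 of 16 in nuclei of at least 2000 UMIs and 7 of 15 with at least 50 UMIs per gene. It was 8 of 19 without the nuclei with border macrophage genes. The share of genes past 2-fold was 15.2%, and 8.48% over every nucleus of the micro cluster, where 38.3% of these were higher in HET instead of 59.4%. The share of microglia with a Cx3cr1 UMI was 80.6% and 62.8% when thinned to 1000 UMIs. Antigen presentation changed sign without the deepest nuclei (0.065) and proliferation without the 10 nuclei set apart (-0.63). The cause of these shifts was not tested. Of all 63 recomputed values that answer a comparison, 50 stayed close to the main value. For ratios and shares of nuclei, close meant within the counting interval. Counts of lists and the share of genes past 2-fold had no such interval, and close meant within a set fold of the main value. Among single lists 288 of 312 values stayed within the counting interval, as did 382 of 403 for single genes. No paired analysis was possible because each genotype has 1 library. With 41 and 67 shallow nuclei, ratios of single genes under 20 UMIs were not read.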
